A study of Mus musculus with 6 samples.

Results

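The genes described here are 26 components of GABA signalling: subunits of the ionotropic and metabotropic GABA receptors, the enzymes that make and break down GABA, its vesicular and plasma membrane transporters, and the receptor scaffold gephyrin. They were taken by symbol from a table of 24532 genes, and all 26 had a row. Of these, 22 passed the filter on low counts and were tested. Gabra6, Gabrp, Gabrr1 and Gabrr3 did not pass. The set does not hold every GABA receptor subunit or GABA transporter of the mouse, so shares within a class refer to the members named.

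GABA is the main inhibitory transmitter of the brain, and the medium spiny neurons that make up most of the striatum, the nucleus accumbens included, release it. Type A receptors are chloride channels built from 5 subunits around a pore, usually alpha and beta subunits together with a gamma or delta subunit, and the subunits set where the receptor sits and which drugs act on it. Type B receptors are G protein-coupled heterodimers, in which the Gabbr1 product binds GABA and the Gabbr2 product couples to G proteins. Ethanol is known to enhance inhibition through GABA receptors, and receptors with a delta subunit have been discussed as a sensitive class.

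Messenger RNA of the nucleus accumbens core was sequenced from wild-type male adolescent mice, as 3 libraries titled ethanol and 3 titled control. Per the labels, context fear conditioning was followed by 1 day of binge-like ethanol, then by extinction trials and, 24 h after these, by 27 days of every-other-day drinking. The interval from the end of drinking to tissue collection was 24 h. The ethanol exposure consisted of 6 intraperitoneal injections of 20% v/v ethanol within 6 h, at 1.8 g/kg and then 1.2 g/kg. The age given is postnatal day 35 to 55, a span shorter than the 27 days of drinking. It therefore does not settle the age at tissue collection. The protocol fields are the same for both groups, all 6 libraries carry the treatment label of ethanol exposure, and the drinking period is given for both, so the groups rest on the sample titles. What the control mice were injected with, the strain, and whether each library came from a separate animal were not stated, and the p-values therefore reflect only how far these libraries spread, which may be technical.

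Library totals ranged from 36197592 to 67399599 estimated reads in ethanol and from 35898026 to 55672232 in control. A total of 3 reads, used here as the floor for detection, corresponded to 0.045 to 0.084 CPM, where CPM is the read count scaled to a common library total. This covers counting error only. Markers of medium spiny neurons, which make up most of the striatum, were present. The summed level of 10 genes shared by these neurons was 2108 to 3265 CPM in ethanol and 1772 to 2100 CPM in control. These genes do not tell the nucleus accumbens core from other parts of the striatum. Markers of neighbouring tissue were uneven. The summed level of 6 cortical glutamatergic markers was 18.5 to 71.7 CPM in ethanol and 73.5 to 331 CPM in control, and choroid plexus markers reached 406 CPM in control 3 against 9.36 to 16.5 CPM in the other 5 libraries. In bulk tissue, fewer cells of a type and less RNA per cell cannot be told apart.

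Levels per length, as the FPKM values that the authors deposited (fragments scaled to transcript length and library total), put the members in tiers. The length is that of the RefSeq transcripts listed, which for some genes is far below the exon bases in GENCODE M21. It was 1860 against 13838 bases for Gabrb1, 1673 against 11934 for Gabrg3 and 2392 against 7640 for Gabra2. For Slc32a1 the lengths were close (2805 against 2797). Its part in levels between genes and in shares within a class was not tested. The most abundant was Gabbr1 with a mean over the 6 libraries of 144 FPKM, followed by Gad1 (142 FPKM), which makes the larger form of glutamate decarboxylase. Next were the GABA transporter gene Slc6a11 of astrocytes (119 FPKM), the GABA transaminase gene Abat (93.4 FPKM), the vesicular GABA transporter gene Slc32a1 (81.8 FPKM) and Gad2, the second decarboxylase (54.6 FPKM). These 6 stood above all ionotropic subunits in the set. The order among neighbours is not settled, since Gabbr1 ranged from 112 to 180 FPKM and Gad1 from 126 to 158 FPKM across libraries.

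Among the ionotropic subunits Gabrd stood first with 23.8 FPKM (range 19.1 to 30.1), and Gabra3 followed with 20.1 FPKM (17.4 to 26.5), so their ranges overlapped. Gabrb2 averaged 12.4 FPKM, Gabra5 10.8 FPKM and Gabra4 9.52 FPKM. A lower tier from 3.90 to 5.41 FPKM held Gabrg1, Gabrb1, Gabra2 and Gabrq. The rho subunit gene Gabrr2, known best from the retina, averaged 1.13 FPKM, and Gabre and Gabrg3 averaged 0.91 and 0.87 FPKM.

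At the bottom, Slc6a12, which encodes a transporter of betaine and GABA, had 10 to 16 reads in ethanol libraries and 12 to 48 in control libraries. Gabrr1 had 20, 5 and 8 reads in ethanol 1 to 3, and 6, 0 and 7 in control 1 to 3. Gabra6, a subunit gene of cerebellar granule cells, had 3 reads in ethanol 3 and 0 elsewhere. Gabrr3 had 1 read in control 1 and 0 elsewhere. Gabrp had 0 reads in all 6 libraries, so it was not detectable at this depth.

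**Figure D1:**
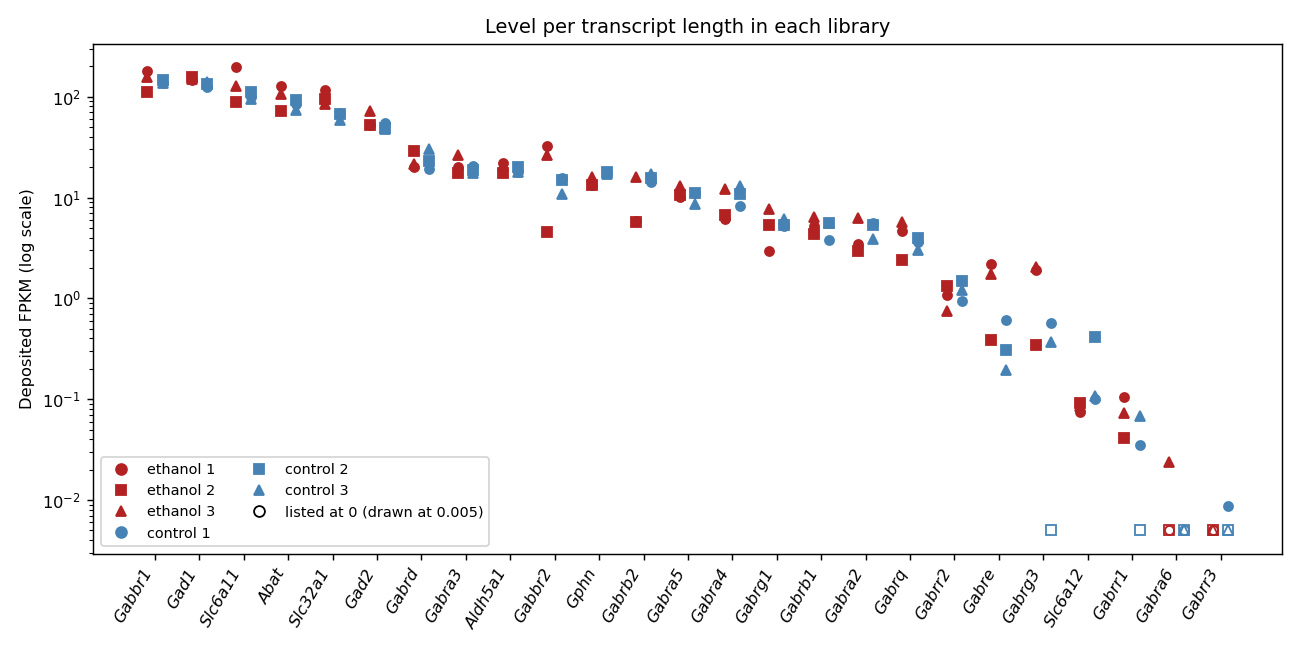
Deposited FPKM (log axis) of the 25 members with any read, ordered by mean level. Red marks ethanol and blue control, the marker shape gives the replicate number, and hollow markers stand for values listed at 0. The decarboxylases, Slc32a1, Slc6a11, Abat and Gabbr1 lie above 47 FPKM in every library, and Gabbr2 and Gabrb2 show wide spread among the ethanol libraries but not among the control libraries.

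The comparison of ethanol with control asks whether the transcripts of GABA signalling differed between the groups after the drinking period. By the quasi-likelihood test of edgeR with Benjamini-Hochberg adjustment over all 15774 genes tested, 0 of the 22 members passed an adjusted p of 0.05 in either direction, as did 0% of all genes. Without adjustment, p was under 0.05 for 3 members with higher values in ethanol, Slc32a1, Gabre and Gabrg3 (13.6%, against 5.31% of all genes), and for 0 with lower values (against 5.34%). In either direction these genes made up 10.7% of all tested. limma-voom called 0% of genes after adjustment and 11.1% before it, 1751 in number. DESeq2 called 2 members, Slc32a1 and Gabre, both higher in ethanol, where it called 0.356% of all genes higher and 0.659% lower.

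Of the 22 members, 16 had a log2 fold change above 0 (72.7%), against 52.7% of all genes, and 6 had one below 0, against 47.3%. The members' median was 0.23, against 0.02 over all genes. The ethanol libraries lay wholly above the control libraries in 4 members, or 18.2% against a background of 9.35%. These were Slc32a1, Gad1, Gad2 and Gabra5. They lay wholly below in 1 member, Gphn, or 4.55% against 8.41%. These counts describe the list, whose members were measured in the same libraries.

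**Figure D2:**
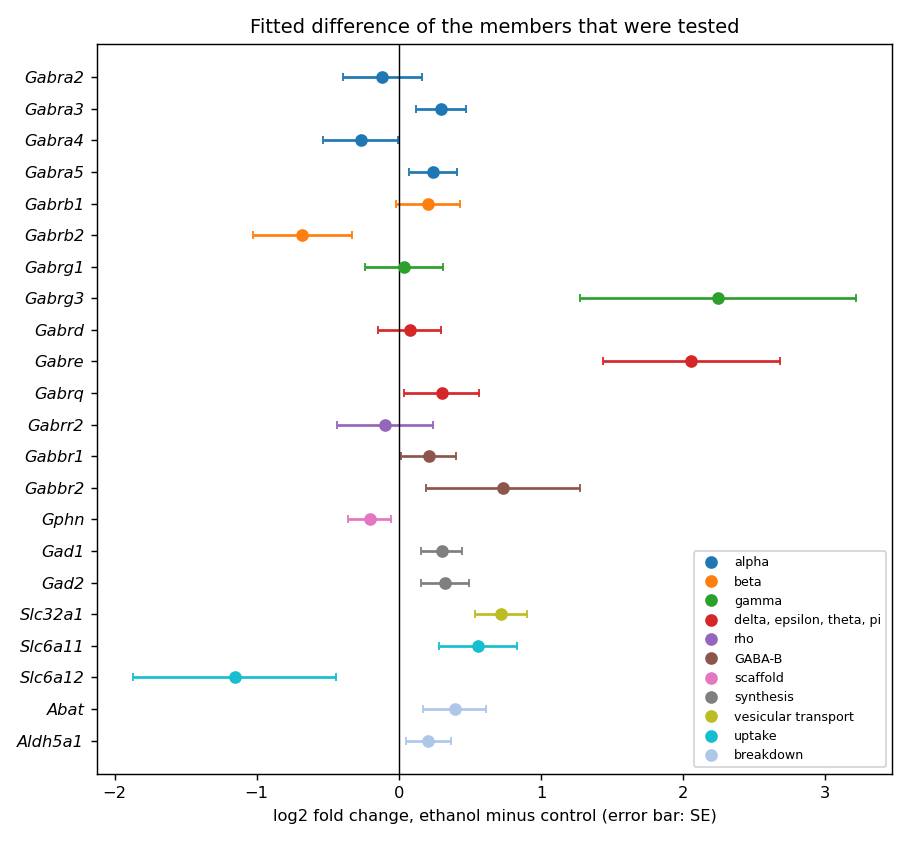
Fitted log2 fold change of ethanol minus control for the 22 members tested, coloured by class, with the standard error as bar. Apart from Slc6a12 and Gabrb2 at the low end, members lie between -0.3 and 0.8 or, for Gabre and Gabrg3, above 2 with wide bars, and none passed the adjusted threshold.

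The genes for making and packaging GABA had higher values in ethanol, without passing the test. Slc32a1 (gene ID 22348) loads GABA into synaptic vesicles. It had 430, 339 and 283 CPM in ethanol 1 to 3, against 227, 217 and 196 CPM in control 1 to 3. Every ethanol library was above every control library, and ethanol 1 was the highest. The means were 351 ± 74.2 CPM in ethanol and 213 ± 15.7 CPM in control (SD, n = 3 each). The fitted log2 fold change was 0.72 (SE 0.19). The unadjusted p was 0.00334 and the adjusted p by edgeR 0.42. When 1 library was left out in turn, the value lay between 0.55 and 0.85. DESeq2 gave an adjusted p of 0.0401. In GENCODE M21 a gene on the other strand, Gm14205, covers 24.9% of the exon bases of Slc32a1, and whether counting used strand is not given in the sources used here.

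Gad1 (gene ID 14415), whose product supplies most GABA in neurons, had 635, 652 and 588 CPM in ethanol 1 to 3, against 481, 504 and 538 CPM in control 1 to 3. The groups did not overlap, and the spread within each was narrow. Its log2 fold change was 0.30 (SE 0.14, adjusted p = 0.48 by edgeR). Gad2 (gene ID 14417), whose product is tied to synaptic vesicles, had 385, 369 and 491 CPM in ethanol 1 to 3, against 360, 320 and 314 CPM in control 1 to 3. Again the groups did not overlap, although ethanol 2 and control 1 were close, and the log2 fold change was 0.33 (SE 0.17, adjusted p = 0.51 by edgeR).

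The balance between both decarboxylases overlapped between the groups. The FPKM ratio of Gad1 to Gad2 was 2.65 ± 0.52 in ethanol and 2.65 ± 0.33 in control (SD, n = 3 each). The FPKM ratio of Slc32a1 to Gad1 was 0.79, 0.61 and 0.56 in ethanol 1 to 3, against 0.55, 0.50 and 0.42 in control 1 to 3. These did not overlap either, although ethanol 3 and control 1 differed by little. Values of 3 against 3 libraries in random order fail to overlap in 10% of cases, and no background over other gene pairs was computed. Ratios within a library do not depend on the scaling of that library.

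Markers of medium spiny neurons, which use these 3 genes, had values in the same direction. Of the 10 genes shared by both kinds, 10 had a log2 fold change above 0 with a median of 0.34, and of 6 markers of the D2 kind 6 had one above 0 with a median of 0.63, while 4 of 6 of the D1 kind did with a median of 0.09. The highest library in the summed level of the shared markers was ethanol 2 (3265 CPM), which was also the highest for Gad1, while ethanol 1 was the highest for Slc32a1 and ethanol 3 for Gad2. GABA interneuron markers summed to 899 to 1202 CPM in ethanol and 859 to 1157 CPM in control, with 5 of 9 above 0. The part of cell composition in the result was not tested.

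All 3 genes lie on chromosome 2 of the mouse, far from each other. The 250 bases before each start are shown because the 3 genes share the direction of their values. They are from RefSeq, build GRCm38.p6, plus strand, at chr2:158610508-158610757 for Slc32a1, chr2:70561879-70562128 for Gad1 and chr2:22622077-22622326 for Gad2. Capitals mark matches, on either strand, to a GC box (GGGCGG), the core of the cAMP response element (TGACG) or a TATA box (TATAAA).
Slc32a1: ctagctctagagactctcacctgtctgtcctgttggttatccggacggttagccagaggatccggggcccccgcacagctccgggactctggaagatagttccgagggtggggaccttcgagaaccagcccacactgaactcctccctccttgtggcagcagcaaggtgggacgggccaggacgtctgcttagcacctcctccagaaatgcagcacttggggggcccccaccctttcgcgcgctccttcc
Gad1: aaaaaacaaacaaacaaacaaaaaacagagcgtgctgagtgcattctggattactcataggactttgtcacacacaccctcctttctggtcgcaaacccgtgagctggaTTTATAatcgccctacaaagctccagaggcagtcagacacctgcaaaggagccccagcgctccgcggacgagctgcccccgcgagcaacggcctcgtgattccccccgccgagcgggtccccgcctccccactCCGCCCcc
Gad2: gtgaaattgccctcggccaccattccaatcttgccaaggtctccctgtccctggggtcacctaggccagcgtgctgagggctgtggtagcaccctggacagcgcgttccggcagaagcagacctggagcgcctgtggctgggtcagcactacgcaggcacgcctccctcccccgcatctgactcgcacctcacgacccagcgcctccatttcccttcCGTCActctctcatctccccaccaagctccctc

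The windows held 62.4%, 58.0% and 64.0% G and C for Slc32a1, Gad1 and Gad2. Gad1 held 1 GC box and 1 TATA box match, Gad2 held 1 core of the cAMP response element, and Slc32a1 held none of these letters. Over all 32851 promoter windows of that length the GC box was found in 32.7%, that core in 17.8% and the TATA box in 12.4%. Of the 24 members with a window, 12 held a GC box, 4 that core and 3 the TATA box. A member was counted if any window of the gene held a match, whereas the percentages count single windows. The member counts and the percentages are therefore not directly comparable. No motif was common to the 3 genes.

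The uptake gene Slc6a11 and the breakdown genes Abat and Aldh5a1 had log2 fold changes above 0 that did not pass the test, while that of the scarce uptake gene Slc6a12 was below 0. Slc6a11 (gene ID 243616) clears GABA into astrocytes. It had 1053, 456 and 618 CPM in ethanol 1 to 3, against 468, 523 and 455 CPM in control 1 to 3. Ethanol 1 stood far above the rest, and ethanol 2 lay within the control range. The log2 fold change was 0.56 (SE 0.27, adjusted p = 0.49 by edgeR), and it was 0.16 without ethanol 1 and 0.78 without ethanol 2.

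Abat (gene ID 268860), whose product starts the breakdown of GABA in mitochondria, had 784, 423 and 593 CPM in ethanol 1 to 3, against 463, 502 and 405 CPM in control 1 to 3. The order of the ethanol libraries was that of Slc6a11. Its log2 fold change of 0.39 (SE 0.22, adjusted p = 0.54 by edgeR) was 0.15 without ethanol 1. Aldh5a1, whose product takes the next step to succinate, had 162, 125 and 141 CPM in ethanol 1 to 3, against 119, 133 and 118 CPM in control 1 to 3, so ethanol 2 overlapped the controls. Of 6 astrocyte markers 5 had a log2 fold change above 0, with a median of 0.24. Their summed level was 2404, 1839 and 2312 CPM in ethanol 1 to 3, against 1764, 1979 and 1616 CPM in control 1 to 3, and it too was lowest among ethanol libraries in ethanol 2. Its part in the result was not tested.

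Of the metabotropic receptor genes, Gabbr2 varied far more between ethanol libraries than Gabbr1. Gabbr1 (gene ID 54393) had 1066, 633 and 841 CPM in ethanol 1 to 3, against 715, 752 and 729 CPM in control 1 to 3. The control libraries were nearly equal, and the ethanol libraries lay on both sides of them. Gabbr2 (gene ID 242425) had 170, 23.3 and 127 CPM in ethanol 1 to 3, against 72.4, 69.6 and 50.8 CPM in control 1 to 3. Ethanol 1 and ethanol 3 were above every control library, and ethanol 2 was below every one, a 7.31-fold range over the 6 libraries.

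For Gabbr2 the log2 fold change of 0.73 (SE 0.54) had an adjusted p of 0.63 by edgeR. Without ethanol 2 it was 1.20 with an adjusted p of 0.0255, in a fit that called 1.26% of all genes higher and 0.0628% lower. Without ethanol 1 it was 0.22. The FPKM ratio of Gabbr1 to Gabbr2 was 5.58, 24.3 and 5.91 in ethanol 1 to 3, against 8.80, 9.63 and 12.8 in control 1 to 3. Ethanol 2 thus had the most unequal pair and the other ethanol libraries the least unequal ones. The within-group SD of log2(CPM + 0.1) for Gabbr2 was 1.11, larger than in 97.1% of all genes tested, against 0.27 for Gabbr1.

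**Figure D3:**
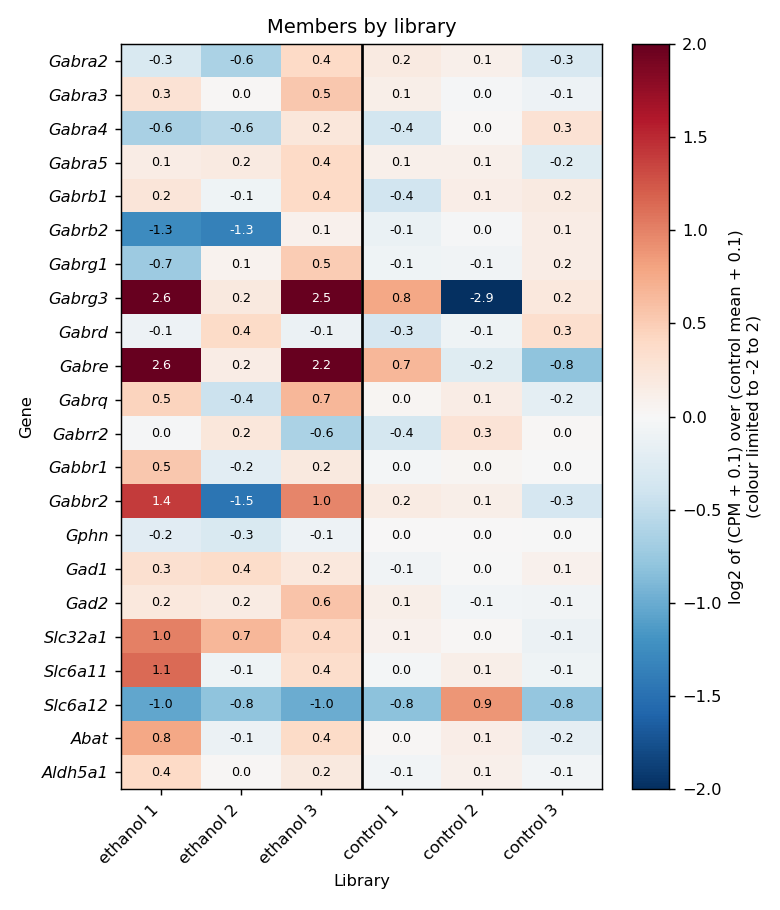
CPM of each tested member in each library, as log2 relative to the mean of the control libraries with 0.1 CPM added and the colour limited to -2 to 2. Ethanol 1 and ethanol 3 are red for Gabrg3, Gabre, Gabbr2 and Gabrq where ethanol 2 is near or below the controls, and ethanol 1 and ethanol 2 are blue for Gabrb2.

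Of the alpha subunits, which set the benzodiazepine response of type A receptors, none passed the test. Gabra3 had 99.7, 83.2 and 119 CPM in ethanol 1 to 3, against 89.0, 80.3 and 76.6 CPM in control 1 to 3, a log2 fold change of 0.29 (SE 0.18). Gabra5, known from hippocampal extrasynaptic receptors, had 35.4, 36.3 and 42.1 CPM in ethanol 1 to 3, against 34.3, 34.5 and 27.2 CPM in control 1 to 3. Its groups did not overlap, but the gap between ethanol 1 and control 2 was under 1 CPM, and the log2 fold change was 0.24 (SE 0.17). By edgeR their adjusted p-values were 0.56 and 0.61.

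Gabra4, which pairs with the delta subunit in tonic inhibition of the striatum, had 33.0, 35.1 and 60.6 CPM in ethanol 1 to 3, against 39.8, 52.2 and 62.9 CPM in control 1 to 3. Its log2 fold change was -0.27 (SE 0.26), and -0.60 without ethanol 3. Gabra2 had 11.0, 8.84 and 18.1 CPM in ethanol 1 to 3, against 15.5, 14.7 and 10.9 CPM in control 1 to 3, a log2 fold change of -0.12 (SE 0.28) that was 0.07 without ethanol 2. For both genes ethanol 3 stood apart from the other ethanol libraries and the groups overlapped.

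Within the summed FPKM of the alpha subunits measured, Gabra3 held the largest part in every library. It took 50.9%, 46.4% and 45.6% in ethanol 1 to 3, against 45.2%, 40.5% and 40.7% in control 1 to 3, without overlap but with ethanol 3 and control 1 nearly equal. No background of such shares in other gene classes was computed. Gabra4 took 18.0 ± 2.92% in ethanol and 24.1 ± 5.96% in control (SD, n = 3 each). The summed FPKM itself was 45.3 ± 11.1 in ethanol and 44.6 ± 1.66 in control.

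The beta subunits, which every classical type A receptor contains, gave the largest shift in composition among the classes. Gabrb2 (gene ID 14401) had 57.8, 54.2 and 146 CPM in ethanol 1 to 3, against 125, 135 and 153 CPM in control 1 to 3. Ethanol 1 and ethanol 2 had less than any control library, and ethanol 3 lay within the control range. The log2 fold change was -0.68 (SE 0.35, adjusted p = 0.51 by edgeR), and it was -1.30 without ethanol 3 and -0.44 without ethanol 2. Gabrb1, a less abundant subunit gene, had 12.9, 10.2 and 14.4 CPM in ethanol 1 to 3, against 8.31, 11.9 and 12.3 CPM in control 1 to 3, and its groups overlapped.

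As a share of the FPKM of both, Gabrb2 was 52.5%, 56.8% and 71.5% in ethanol 1 to 3, against 78.8%, 73.6% and 75.4% in control 1 to 3. Every ethanol library was below every control library. Here too, values in random order would fail to overlap in 10% of cases, and no background of such shares was computed. Among markers of cortical glutamatergic neurons, 4 of the 5 tested had a log2 fold change below 0, with a median of -1.99. Slc17a7, which loads glutamate into vesicles, had 24.7, 9.42 and 55.9 CPM in ethanol 1 to 3, against 289, 58.2 and 102 CPM in control 1 to 3. The ethanol library with the most Slc17a7 was also the one with the most Gabrb2, while control 1 had the highest Slc17a7 and the lowest Gabrb2 of the controls. The part of cortical tissue in the result was not tested.

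**Figure D4:**
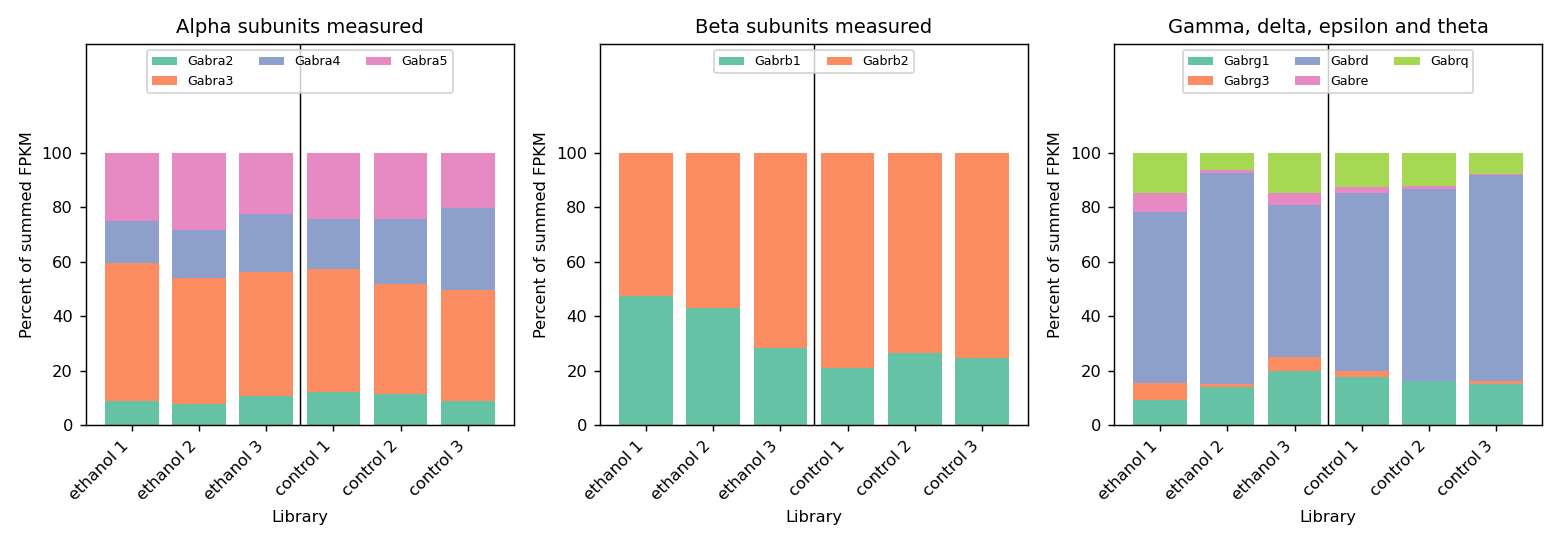
Share of each subunit in the summed FPKM of the measured alpha subunits, beta subunits, and gamma, delta, epsilon and theta subunits, one bar per library. Gabra3 and Gabrd are the largest parts of their classes in every library, and Gabrb1 takes 28.5% to 47.5% of the beta class in ethanol and 21.2% to 26.4% in control.

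The delta subunit gene Gabrd (gene ID 14403), which marks extrasynaptic receptors, had 49.3, 69.1 and 48.8 CPM in ethanol 1 to 3, against 41.9, 49.5 and 66.9 CPM in control 1 to 3. The groups overlapped throughout. The log2 fold change of 0.08 (SE 0.22) changed sign under several settings given further on. The FPKM ratio of Gabra4 to Gabrd was 0.30, 0.23 and 0.57 in ethanol 1 to 3, against 0.43, 0.48 and 0.43 in control 1 to 3, so the controls were tight and the ethanol libraries lay on both sides.

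Gabre and Gabrg3 had the largest fold changes of the set, at low counts. Gabre (gene ID 14404) encodes the epsilon subunit, found in few brain regions such as the hypothalamus. It had 511, 56 and 219 reads in ethanol 1 to 3, against 114, 39 and 24 reads in control 1 to 3, or 8.14, 1.36 and 5.88 CPM against 1.98, 1.01 and 0.66 CPM. Ethanol 1 and ethanol 3 were above all controls, and ethanol 2 was below control 1. The log2 fold change was 2.06 (SE 0.62), with an unadjusted p of 0.00821 and an adjusted p of 0.43 by edgeR. DESeq2 gave an adjusted p of 0.0465, and limma-voom one of 0.43. By edgeR without ethanol 2 it was 0.0312, in a fit that called 1.26% of all genes higher and 0.0628% lower. Without ethanol 1 the unadjusted p by edgeR was 0.0542 and the adjusted p 0.90. The log2 fold change of Gabre lay between 1.55 and 2.62 when 1 library was left out in turn.

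Gabrg3 (gene ID 14407), a rare gamma subunit gene, had 265, 30 and 153 reads in ethanol 1 to 3, against 65, 0 and 27 reads in control 1 to 3. Ethanol 1 and ethanol 3 were again the highest, and ethanol 2 lay inside the control range. The fitted log2 fold change of 2.25 (SE 0.97) had an unadjusted p of 0.0442 and an adjusted p of 0.46 by edgeR. The unadjusted p was 0.0651 with total counts only, 0.0579 in limma-voom and 0.154 in DESeq2. The log2 fold change was 1.69 without control 2, the library with 0 reads, and 3.04 without control 1, and the unadjusted p was 0.153 without ethanol 1, 0.147 without ethanol 3 and 0.0651 without control 3. The theta subunit gene Gabrq, a neighbour of Gabre on the X chromosome, had 27.8, 15.1 and 32.2 CPM in ethanol 1 to 3, against 20.9, 22.4 and 17.7 CPM in control 1 to 3, with ethanol 2 again the lowest of the ethanol libraries and ethanol 3 the highest.

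The summed level of 4 septal markers was 64.3, 44.0 and 87.5 CPM in ethanol 1 to 3, against 48.2, 45.9 and 54.2 CPM in control 1 to 3, and 3 of the 4 had a log2 fold change above 0. Ethanol 1 and ethanol 3 were above all controls and ethanol 2 below them, an order that the most abundant of the 4, Zic1, set with 40.4, 18.8 and 54.4 CPM in ethanol 1 to 3, against 24.6, 19.8 and 34.7 CPM in control 1 to 3. The other 3 did not share it, since Gbx1 and Trpc4 were above all controls in every ethanol library and Lhx2 overlapped the controls. The part of neighbouring tissue in the values of Gabbr2, Gabre, Gabrg3 and Gabrq was not tested.

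The remaining gamma and rho subunits that were tested, Gabrg1 and Gabrr2, did not pass either, and their groups overlapped. Gabrg1, which is found in astrocytes as well as neurons, had 18.5, 32.2 and 44.0 CPM in ethanol 1 to 3, against 29.0, 29.2 and 34.2 CPM in control 1 to 3, a log2 fold change of 0.03 (SE 0.28). Gabrr2 had 2.57, 3.04 and 1.64 CPM in ethanol 1 to 3, against 2.01, 3.15 and 2.62 CPM in control 1 to 3, a log2 fold change of -0.10 (SE 0.34). Slc6a12 had 0.25, 0.32 and 0.27 CPM in ethanol 1 to 3, against 0.31, 1.25 and 0.33 CPM in control 1 to 3. Its fitted log2 fold change of -1.15 (SE 0.71) rests on control 2 and was -0.19 without it.

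The receptor genes sit in groups along the genome, and neighbours did not share a direction throughout. On chromosome 5 of the mm10 build, Gabrg1 (70751047 to 70842617), Gabra2 (70961057 to 71095849), Gabra4 (71569734 to 71658308) and Gabrb1 (71700016 to 72137244) follow each other, with log2 fold changes of 0.03, -0.12, -0.27 and 0.21. On chromosome X, Gabre (72257432 to 72274721), Gabra3 (72432676 to 72656246) and Gabrq (72825178 to 72842602) had 2.06, 0.29 and 0.30. On chromosome 7, Gabrg3 (56724242 to 57386871) and Gabra5 (57407669 to 57510009), which are 20.8 kb apart, had 2.25 and 0.24. On chromosome 11 Gabrb2 had -0.68 and its neighbour Gabra6 was below the filter.

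Gphn (gene ID 268566, chromosome 12 from 78226655 to 78684769) encodes gephyrin, the scaffold that holds glycine and type A receptors at inhibitory synapses. It was the steadiest member, with 57.9, 55.2 and 63.5 CPM in ethanol 1 to 3, against 68.0, 68.1 and 67.4 CPM in control 1 to 3. Every ethanol library was below every control library, by a small margin for ethanol 3. The log2 fold change was -0.21 (SE 0.15, adjusted p = 0.62 by edgeR) and lay between -0.26 and -0.17 when 1 library was left out.

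The table holds 2 transcripts of Gphn, and their estimated shares differed more than the gene total. Variant 1 (NM_145965) is 3300 bases long and variant 2 (NM_172952) 3291 bases. Variant 1 has a coding exon of 108 bases of its own (chr12:78493950-78494057, plus strand), and variant 2 has instead, further downstream, coding exons of 57 bases (chr12:78522898-78522954) and 42 bases (chr12:78532657-78532698). The own bases are shown in capitals, with 15 shared bases on each side in lower case, from GENCODE M21 on the build of the files, because the split of reads between the variants rests on them.
Gphn variant 1: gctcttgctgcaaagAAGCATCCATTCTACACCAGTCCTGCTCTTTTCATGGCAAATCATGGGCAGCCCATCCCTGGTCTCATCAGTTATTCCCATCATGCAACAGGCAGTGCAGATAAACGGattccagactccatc
Gphn variant 2: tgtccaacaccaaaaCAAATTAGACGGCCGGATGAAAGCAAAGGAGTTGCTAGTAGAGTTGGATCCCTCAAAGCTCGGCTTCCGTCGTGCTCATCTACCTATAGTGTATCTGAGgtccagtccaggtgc

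Variant 2 took 28.2%, 20.1% and 35.2% of the Gphn FPKM in ethanol 1 to 3, against 18.6%, 5.80% and 16.0% in control 1 to 3. Every ethanol library was above every control library, with ethanol 2 and control 1 close. Its estimated reads were 1024, 454 and 830 in ethanol 1 to 3, against 728, 152 and 395 in control 1 to 3. The means were 27.8 ± 7.55% in ethanol and 13.5 ± 6.78% in control (SD, n = 3 each). The exact two-sided permutation test gave p = 0.10, the smallest that 3 against 3 libraries allow. Any share whose groups do not overlap gives this value, so the test adds nothing to the lack of overlap. Among 2270 genes with 2 transcripts, of which the rarer had at least 10 reads on average, the share of the rarer one was wholly higher in ethanol in 7% and wholly lower in 4.23%. Reads of a Gphn transcript with neither stretch would have been assigned to 1 of these variants.

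Of the other 4 members with 2 transcripts of which the rarer had at least 10 reads on average, none had shares that separated the groups. For these the same permutation test gave p = 0.2 to 0.5. Variant 2 of Gabrq (NM_020488) had 134, 4 and 57 reads in ethanol 1 to 3, against 6, 12 and 0 in control 1 to 3, which again put ethanol 1 and ethanol 3 above the rest. Variant 2 of Abat (NM_001170978) made up 0.88%, 0.66% and 3.52% of the Abat FPKM in ethanol 1 to 3, against 2.15%, 4.74% and 0.94% in control 1 to 3. Variant 2 of Gad1 (NM_001312900) had 3 to 15 reads in ethanol and 5 to 27 in control, under 0.3% of Gad1 in every library.

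**Figure D5:**
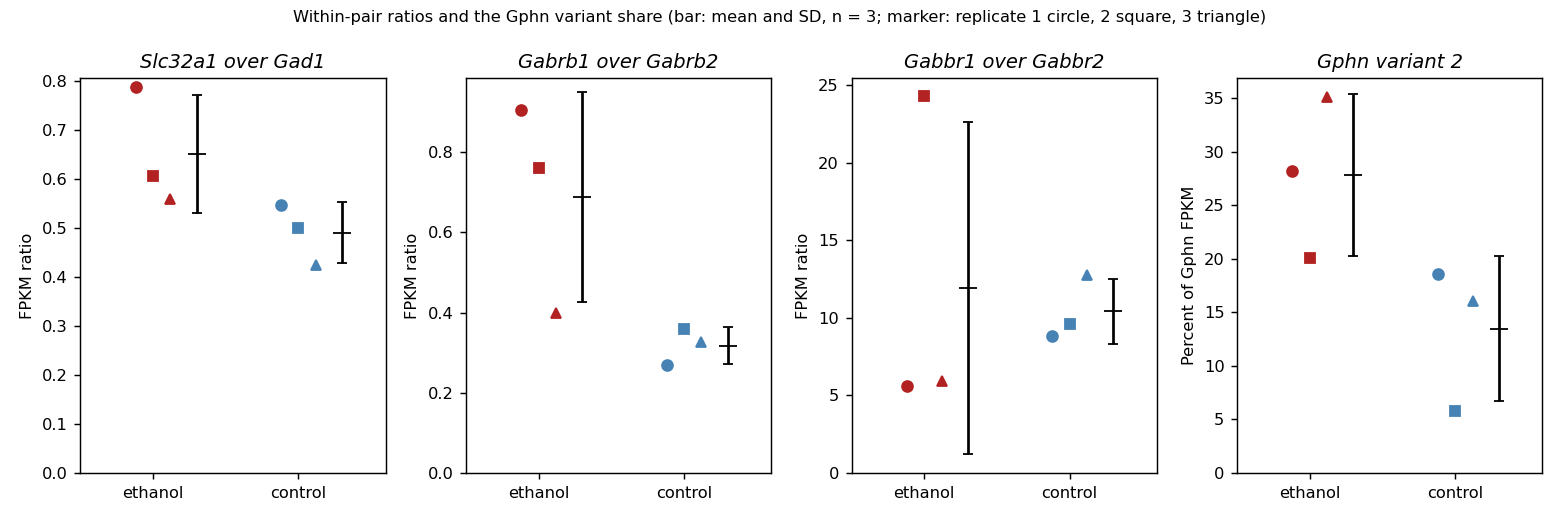
FPKM ratios of Slc32a1 to Gad1, Gabrb1 to Gabrb2 and Gabbr1 to Gabbr2, and the percentage of Gphn FPKM in variant 2, for each library, with the mean and SD of 3. The groups do not overlap in the first, second and last panel, and in the third ethanol 2 stands at 24.3 while the other libraries lie between 5.58 and 12.8. With 3 against 3 libraries, values in random order fail to overlap in 10% of cases. No background over other gene pairs was computed for the ratios, and the second panel restates the shares of the beta class.

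Over the 22 tested members, ethanol 1 was the highest library in 8 and ethanol 3 in 7, while over all genes tested they were the highest in 26.1% and 12.7%. Control 1 was the highest in 0 members, against 10.3% of all genes. Control 3 was the lowest library in 8 members and ethanol 2 in 6, against 15.2% and 24.1% of all genes. These counts only describe the list, since its members were measured in the same libraries and are not independent. Spread within groups differed widely between members. Gphn and Gad1 had within-group SDs of log2(CPM + 0.1) of 0.07 and 0.08, smaller than in all but 1.37% and 1.83% of all genes tested, and Gabrg3 and Gabre had 1.68 and 1.07, larger than in 99.7% and 96.8%.

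A list of other genes of inhibitory synapses and GABA handling, made of anchoring proteins, auxiliary subunits, trafficking factors, chloride transporters and glutamine cycle genes, had 38 of 40 genes in the table, all tested. Over all genes 0 passed in edgeR. At an unadjusted p under 0.05 there were 5 with higher values (13.2%, against 5.31% of all genes) and 2 with lower values (5.26%, against 5.34%). In all, 27 had a log2 fold change above 0 (71.1%, against 52.7%), and the median was 0.17.

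The smallest p in this list was that of Kctd16, an auxiliary subunit gene of type B receptors. It had 3.60, 2.24 and 4.29 CPM in ethanol 1 to 3, against 1.74, 0.94 and 0.85 CPM in control 1 to 3, a log2 fold change of 1.51 (SE 0.40, adjusted p = 0.42 by edgeR). Lhfpl4, whose product links type A receptors to neuroligin at the synapse, had 193, 183 and 170 CPM in ethanol 1 to 3, against 141, 131 and 127 CPM in control 1 to 3, a log2 fold change of 0.45 (SE 0.15, adjusted p = 0.44 by edgeR). Maob, the monoamine oxidase through which astrocytes can make GABA from putrescine, had 38.8, 32.5 and 48.5 CPM in ethanol 1 to 3, against 29.0, 27.8 and 27.5 CPM in control 1 to 3, with an adjusted p of 0.44 by edgeR. In all 3 genes the ethanol libraries lay above the control libraries, which their choice by p in the same comparison favours.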

How the data were processed

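The authors deposited, per the file headers, 1 table holding an estimated count of reads and an FPKM value for each of 36780 RefSeq transcripts in each library. The submitters' processing notes name the build mm10 and bcl2fastq, while the sources used here give no aligner or counter. In every library 100% of the estimated counts checked equalled FPKM times length times library size, rounded up (tolerance 0.05 reads). They are therefore estimates shared out between transcripts, and related or overlapping genes may have been split wrongly. The counts were summed by gene identifier and are whole numbers as deposited.

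Genes passing filterByExpr (minimum count 10), 15774 in all, were scaled with TMM and compared by the two-sided quasi-likelihood test of edgeR 4.0.16 (R 4.3.3). Group was its sole term, and p-values were adjusted by Benjamini-Hochberg over all genes, with a threshold of 0.05. The biological coefficient of variation was 0.252, and the test was checked on simulated counts. The standard error is the absolute log2 fold change over the square root of F. CPM use the TMM-scaled library. Levels between genes and shares use the deposited FPKM summed by gene. Alternatives used DESeq2 1.42.0 and limma 3.58.1, and figures matplotlib 3.10.9.

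The members, the gene lists and the tests were chosen with earlier results of these data known. All members are named, and of the inhibitory synapse list the 3 genes with the smallest unadjusted p.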

Additional observations from a re-analysis of the deposited data

How the results depend on the processing

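With DESeq2, 154 genes and 2 members were called, against 0 genes and 0 members in edgeR. When 1 library was left out, 0 to 211 genes and 0 to 2 members were called by edgeR, and the 211 genes and 2 members (Gabre and Gabbr2) came without ethanol 2. Without control 1 the number was 1 gene and 0 members, and without any other single library 0 genes. In the other settings (edgeR with DESeq2 size factors, with total counts only, without the low-count filter or with a replicate block, and limma-voom with or without sample weights) 0 genes were called. The members' median log2 fold change lay between 0.15 with total counts only and 0.30 without ethanol 2, and the median of all genes was -0.063 with total counts only, against 0.021 with TMM. Sign changes were met in 4 members with values near 0. Gabrd was -0.0057 with total counts only, -0.013 with sample weights and between -0.12 and 0.28 when 1 library was left out. Gabrg1 was -0.028 with total counts only, -0.066 with limma-voom, -0.045 with the replicate block and between -0.28 and 0.31 when 1 library was left out. Gabra2 was 0.021 with sample weights and between -0.46 and 0.075 when 1 library was left out, and Gabrr2 between -0.31 and 0.12. The cause was not tested. With the replicate block 0 members were called and their median was 0.23. Whether replicate numbers pair the libraries is not known. Same-numbered ethanol and control libraries had correlations of 0.15, -0.03 and -0.02 of their deviations from the group means. Ethanol 1 correlated best with control 1, while ethanol 2 and ethanol 3 correlated best with another number. With 3 libraries in each group, such correlations cannot decide the question. The difference in the Gphn variant 2 share, 14.3 percentage points, lay between 10.5 and 18.2 when 1 library was left out, a choice made after seeing the data. Depth limits Gabre, Gabrg3, Gabrr2 and Slc6a12, which had at most 511 reads in a library.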
